A study of Mus musculus with 12 samples.

Results

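The RNA of 32 genes of glycolysis, lactate handling and the hypoxia response was measured in mouse airway organoids after laser ablation of a few cells and in untreated organoids. The genes were chosen by name from the deposited table, in which they fill 33 of 55401 rows, since the symbol Aldoa names 2 rows. All 33 rows passed a filter on low values (10 or more normalized counts in 6 or more libraries), as did 13792 rows of the table. The organoids were grown from airway epithelial cells of adult wild-type C57BL/6J mice and all carried a lentiviral Histone2A-mCherry reporter driven by the p63 promoter. In 6 ablation dishes, 10 adjacent cells in each of 45 organoids were removed with a femtosecond laser. In 6 control dishes no cells were removed, and every dish was harvested 4.5 h after the laser treatment. An ablation and a control dish with the same number share passage, culture day and date, which gives 6 pairs. Library numbers divide the pairs into a set named N39 here (pairs 1 and 3 at passage P2+14, on days 14 and 20, and pair 5 at P2+15, on day 15) and a set named N41 (pair 4 at P2+15, on day 14, and pairs 6 and 7 at P2+16, on days 18 and 19). No label names the sequencing run. The sets meet at passage P2+15, where pair 4 of N41 is dated the day before pair 5 of N39, and apart from these pairs the library set and the passage cannot be told apart. The labels do not say that the dishes came from separate mice, so p-values here measure the spread between dishes. The titles of the 3 N41 controls contain the word ablation, but by treatment label these dishes were controls and were used as such, and the values within N39 are those without them. The basal cell factor Trp63 was higher in the ablation dish of every pair, at 8400.1, 9773 and 9974 counts against 6559, 6443 and 7543 in the controls of pairs 4, 6 and 7, and at 11436, 10699.6 and 8780.0 against 7810.4, 8928 and 7747 in those of pairs 1, 3 and 5.

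Glycolysis turns glucose into pyruvate in the cytosol. Lactate dehydrogenase converts pyruvate to lactate, and monocarboxylate transporters carry lactate across the plasma membrane with a proton. When oxygen is low, prolyl hydroxylases no longer mark HIF-1α for degradation, and the stabilized factor binds short elements with the core ACGTG or GCGTG near genes for glucose transporters, glycolytic enzymes, lactate export and pH control. Basal cells are the stem cells of the airway epithelium.

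The promoters of Slc16a3, Ankrd37, Adm, Car9 and Bnip3 are printed here because their responses to ablation had the most negative differences between the library sets. Each runs 5′ to 3′ from 250 bases before to 50 bases after the RefSeq start site (build GRCm38.p6), with ACGTG and its reverse complement CACGT in capitals.
Slc16a3, chr11:120948817-120949116, plus strand: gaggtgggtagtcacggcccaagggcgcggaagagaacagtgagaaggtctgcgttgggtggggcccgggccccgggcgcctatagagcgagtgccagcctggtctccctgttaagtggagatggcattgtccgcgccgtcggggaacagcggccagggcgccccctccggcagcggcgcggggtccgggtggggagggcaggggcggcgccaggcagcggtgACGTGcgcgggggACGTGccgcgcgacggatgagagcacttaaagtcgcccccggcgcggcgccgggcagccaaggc
Car9, chr4:43506776-43507075, plus strand: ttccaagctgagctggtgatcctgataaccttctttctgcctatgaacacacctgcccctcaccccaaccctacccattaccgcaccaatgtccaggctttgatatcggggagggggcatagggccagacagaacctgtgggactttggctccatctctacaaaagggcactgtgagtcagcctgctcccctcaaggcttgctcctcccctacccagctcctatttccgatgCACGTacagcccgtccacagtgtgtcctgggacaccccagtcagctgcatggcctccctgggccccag
Bnip3, chr7:138909457-138909756, minus strand: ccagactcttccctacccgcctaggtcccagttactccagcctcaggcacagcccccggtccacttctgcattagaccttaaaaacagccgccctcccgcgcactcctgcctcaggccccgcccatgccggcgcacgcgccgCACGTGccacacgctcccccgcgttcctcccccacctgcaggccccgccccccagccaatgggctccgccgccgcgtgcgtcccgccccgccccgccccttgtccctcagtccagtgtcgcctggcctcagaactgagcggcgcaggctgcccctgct
Ankrd37, chr8:45999801-46000100, minus strand: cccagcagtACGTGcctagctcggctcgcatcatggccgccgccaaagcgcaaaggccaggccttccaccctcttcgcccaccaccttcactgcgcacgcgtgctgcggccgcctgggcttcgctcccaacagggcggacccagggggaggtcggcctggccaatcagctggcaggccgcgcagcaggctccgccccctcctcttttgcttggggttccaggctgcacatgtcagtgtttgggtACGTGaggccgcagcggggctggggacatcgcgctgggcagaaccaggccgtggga
Adm, chr7:110627407-110627706, plus strand: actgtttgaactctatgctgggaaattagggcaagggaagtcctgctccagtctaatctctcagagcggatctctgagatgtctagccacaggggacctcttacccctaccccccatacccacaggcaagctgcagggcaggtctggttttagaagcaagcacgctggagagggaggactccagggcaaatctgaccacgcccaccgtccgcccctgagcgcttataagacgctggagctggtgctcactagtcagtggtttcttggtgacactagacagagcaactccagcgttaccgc
Slc16a3 held ACGTG 27 and 14 bases before the start site, and Ankrd37 241 and 6 bases before it. Car9 held the reverse complement, CACGT, 18 bases before its start site. In Bnip3 a palindrome 108 bases before the start site reads as ACGTG on both strands, and the matches overlap. The Adm window held no match to these letters, but held GCGTG or its reverse complement CACGC, the other form of the core, at 2 positions. A start site was found for 31 of the 32 genes, Ndrg1 being the other. Of their 44 promoter windows 25 (56.8%) held ACGTG on either strand, as did 19.6% of 32851 promoters of the same length. GCGTG on either strand was likewise in 25 windows (56.8%), and in 32.4% of all promoters. Windows of genes with several start sites can overlap, and a match is a description of the letters only.

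Ablation libraries held 27600452 to 28247162 normalized counts in all and control libraries 27297950 to 28504390. Defining markers of basal cells were abundant, with Trp63, Krt5, Krt14 and Itgb4 together at 477229 to 618672 counts in ablation dishes and 475422 to 601762 in control dishes. The luminal keratin Krt8 lay between 21477 and 31146. Of the secretory markers Cyp2f2 was high, while Scgb1a1, the defining club cell gene, did not exceed 9.65 counts and Scgb3a2 did not exceed 21.4. Markers of alveolar type II and endothelial cells summed to at most 14.3 counts and those of fibroblasts to at most 48.3. Immune markers (Ptprc, Cd68 and Lyz2) summed to 132.6 to 173.6 counts after ablation and 144.3 to 222.0 in the controls, most of it Cd68 at 88.8 to 157.7. Of the ciliated markers Tubb4b was abundant, while the defining gene Foxj1 did not exceed 18.1 counts and Dnah5 did not exceed 6.76. The 2 hemoglobin genes were at 0 in every library. The share of mitochondrial transcripts lay between 1.29% and 1.504% in N39 and between 1.45% and 1.79% in N41, and its part in the differences between sets was not tested. In whole-dish RNA, fewer cells of a type and less RNA per cell cannot be told apart.

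Untreated organoids expressed the lower glycolytic pathway at high levels. Per kb of exon, Pkm, the last enzyme of the pathway, had the highest mean control level, 12954 normalized counts per kb, followed by Ldha (9299), Gapdh (6984), Aldoa (5551) and Pgk1 (4930). Control ranges of Gapdh (6318 to 8094) and Ldha (8631 to 10946) did not overlap, while those of Eno1 (3157 to 4394) and Tpi1 (3195 to 3980) did. The hypoxia-inducible subunit Hif1a stood in eighth place with 1620 counts per kb, and the lactate exporter Slc16a3 was last with 23.9.

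**Figure D1:**
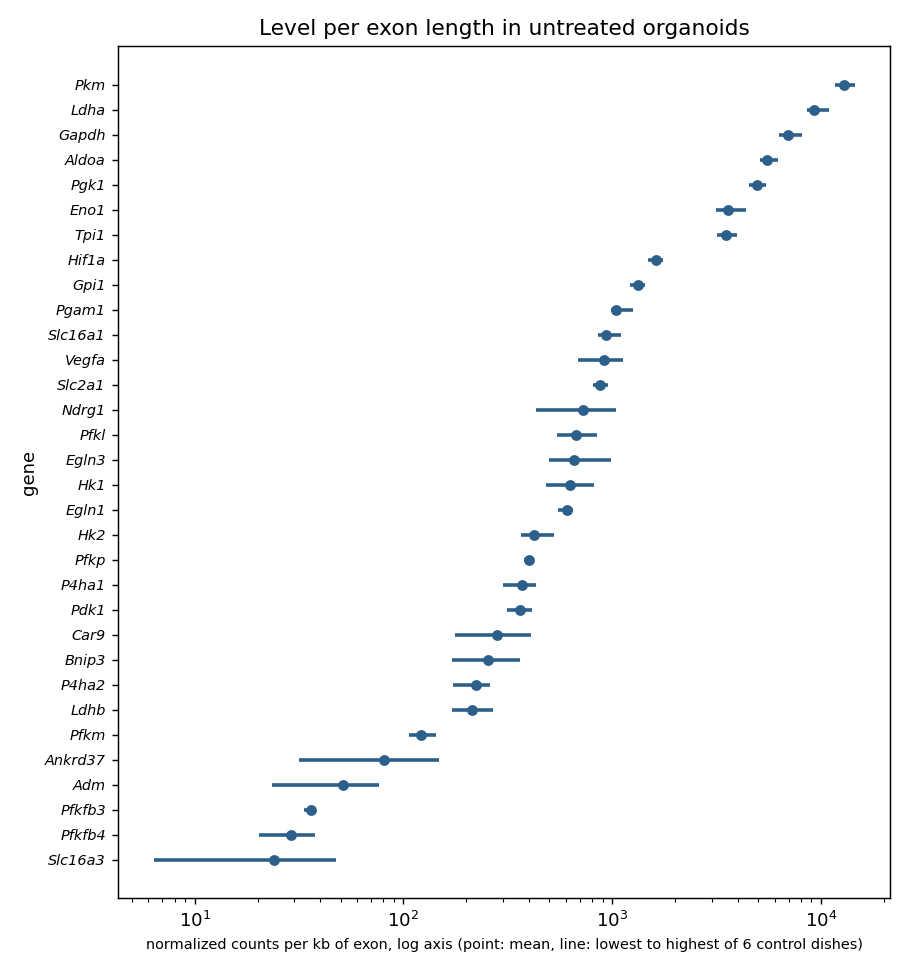
Mean normalized counts per kb of exon for the 32 genes in the 6 control dishes (points, log axis), with lines from the lowest to the highest dish. Pkm is highest at 12954 and Slc16a3 lowest at 23.9, with a range of 6.35 to 47.5.

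Related enzymes differed in level. Ldha, the lactate dehydrogenase subunit of glycolytic tissue, exceeded Ldhb 26.3 to 78.3 times per kb over the 12 libraries, with a median of 43.0. The hexokinases were closer, with Hk1 at 1.03 to 2.09 times Hk2 per kb. Of the phosphofructokinases Pfkl was higher per kb than Pfkp, which stood at 0.475 to 0.863 times Pfkl. This order depends on annotated exon length, 13401 bases for Pfkp and 6675 for Pfkl. In counts not divided by length, Pfkp had the higher control mean, 5358 against 4479. The general monocarboxylate transporter Slc16a1 exceeded Slc16a3 97.0 to 134.6 times in the N39 controls but 18.7 to 33.1 times in the N41 controls. After ablation this ratio was 61.0 to 104.9 in N39 and 55.9 to 116.4 in N41, so the N41 controls alone stood below all other dishes.

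The first comparison asked whether RNA levels differed 4.5 h after ablation. With library set as second factor, 0 of the 33 rows had an adjusted p under 0.05 in limma, as had 0% of all genes tested. With the pair as a term the count was again 0, against 1.09% of all genes (0.674% higher and 0.413% lower). On the whole reads recovered for 9 libraries, edgeR and DESeq2 with library set as second factor called 0 of the 33 rows. These fits lacked ablation 3, ablation 4 and control 4 and held no pair term, so they did not cover the same dishes. At an unadjusted p under 0.05, 2 rows were higher (Hk2 and Pfkp) and 1 was lower (Egln1), or 3 of 33 rows against 7.85% of all genes (4.15% higher and 3.7% lower). The median log2 fold change over the 33 rows was -0.04, beside a median of -0.0036 over all genes. The paired model gave 3 rows higher (Hk2, Pfkp and Vegfa) and 3 lower (Egln1, Gapdh and Pgam1) at an unadjusted p under 0.05, against 17.6% of all genes (8.78% higher and 8.86% lower).

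Glucose entry and its first phosphorylation are carried out by the transporter Slc2a1 and the hexokinases Hk1 and Hk2. Hk2, the inducible hexokinase on chromosome 6 (82725025 to 82774454), was higher after ablation in all 6 pairs. Its counts after ablation were 2731, 3321 and 2990.5 in pairs 1, 3 and 5 and 2457, 2812 and 2800.4 in pairs 4, 6 and 7. In the controls they were 2347, 3126 and 2903 in pairs 1, 3 and 5 and 2331, 2178 and 2194 in pairs 4, 6 and 7. The groups overlapped in N39, while in N41 every ablation dish was above every control. The log2 fold change was 0.19 ± 0.0746 (SE), with an adjusted p of 0.604 in limma with library set and 0.0819 in the paired model. Slc2a1 had 2731 to 3665 counts in ablation dishes and 2833 to 3336 in control dishes, and its log2 fold change was 0.04. Hk1 varied more between pairs than between groups, with 3833 to 7698 counts in ablation dishes and 4091 to 7023 in control dishes.

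Of 12 rows of glycolytic enzymes, 8 had a negative log2 fold change after ablation, and all lay between -0.13 and 0.11. Pfkp, the platelet-type phosphofructokinase, was higher in all 6 pairs. It stood at 5542, 6028 and 6050.4 counts after ablation against 5291, 5538 and 5468 in the controls of pairs 1, 3 and 5. In pairs 4, 6 and 7 it stood at 5596, 5587 and 5907 after ablation against 5399, 5043 and 5406. Every ablation dish was above every control dish, but narrowly, with 5541.9 the lowest ablation count and 5538.5 the highest control count. The share of all genes separated in this way was not counted. The difference was small, 0.11 ± 0.0403 (SE) on the log2 scale, and limma gave an adjusted p of 0.586, or 0.128 with the pair. Pfkp shares 748 exon bases with Pitrm1 on the opposite strand, and the strand setting of the counting was not given in the sources used here.

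Gapdh, the glyceraldehyde phosphate dehydrogenase often used as a reference gene, and Pgam1, the phosphoglycerate mutase, were slightly lower. Gapdh counts were 31250.1, 31682 and 26484 after ablation and 29939.9, 33453 and 28259 in the controls of pairs 1, 3 and 5. In pairs 4, 6 and 7 they were 24485, 24130.3 and 25825 after ablation and 26713, 26113 and 28717 in the controls. Each N41 control was above each N41 ablation dish, and the N39 dishes overlapped. Pgam1 stood at 2105, 2282 and 1856 after ablation and 1960.1, 2488 and 1967 in the controls of pairs 1, 3 and 5, and at 1723, 1757 and 1919.5 after ablation and 1991, 1986 and 2054 in the controls of pairs 4, 6 and 7. The N41 dishes again did not overlap, with the controls above. Their log2 fold changes were -0.08 ± 0.0594 (SE) and -0.10 ± 0.0699 (SE), with adjusted p-values of 0.754 for both in limma with library set. With the pair, limma gave adjusted p-values of 0.278 for Gapdh and 0.272 for Pgam1. Near copies of glycolytic enzyme genes held few counts, a mean of 59.7 for Eno1b and 15.5 for Gm3839. The row of Aldoa with the second identifier (ENSMUSG00000114515.2) held 33 to 109 counts. It lies beside the main Aldoa row on chromosome 7 (126800790 to 126809108, minus strand). Values of the near copies are uncertain, since reads of near-identical copies could be divided between rows. How reads were divided between the Aldoa rows was not tested.

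The oxygen sensors Egln1 and Egln3 encode prolyl hydroxylases that mark HIF-1α in the presence of oxygen. Egln1, on chromosome 8 (124908587 to 124949324), stood at 2382, 1953 and 1858 counts after ablation in pairs 1, 3 and 5 and at 2277, 2347 and 1984 in their controls. In pairs 4, 6 and 7 it stood at 1626, 2008 and 1965 after ablation and at 2177, 2168 and 2198 in the controls. It was lower in every pair but pair 1, and in N41 the controls lay within a narrow range above the ablation dishes. The log2 fold change was -0.16 ± 0.0742 (SE), with an adjusted p of 0.629 in limma and 0.152 with the pair. Hif1a itself differed little, with 8685 to 9838 counts after ablation and 8798 to 10323 in the controls and a log2 fold change of -0.04.

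Vegfa, the vascular growth factor gene on chromosome 17 (46016993 to 46032369), was higher after ablation in all 6 pairs. Its counts were 2986, 5304 and 4677 after ablation and 2925, 4059 and 4139 in the controls of pairs 1, 3 and 5. In pairs 4, 6 and 7 they were 4184, 5435 and 4548 after ablation and 3355, 4833 and 4178 in the controls. Levels differed more between pairs than within them, so the groups overlapped. The log2 fold change was 0.20 in each library set, with an adjusted p of 0.755 in limma with library set and 0.0603 with the pair. Without pair 1 the paired value in limma was 0.23 and passed the threshold (adjusted p = 0.0361). Across the table, 5.17% of genes were higher in all 6 pairs, and 3 of the 33 rows were (Hk2, Pfkp and Vegfa), while 0 rows and 4.63% of genes were lower in all 6.

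**Figure D2:**
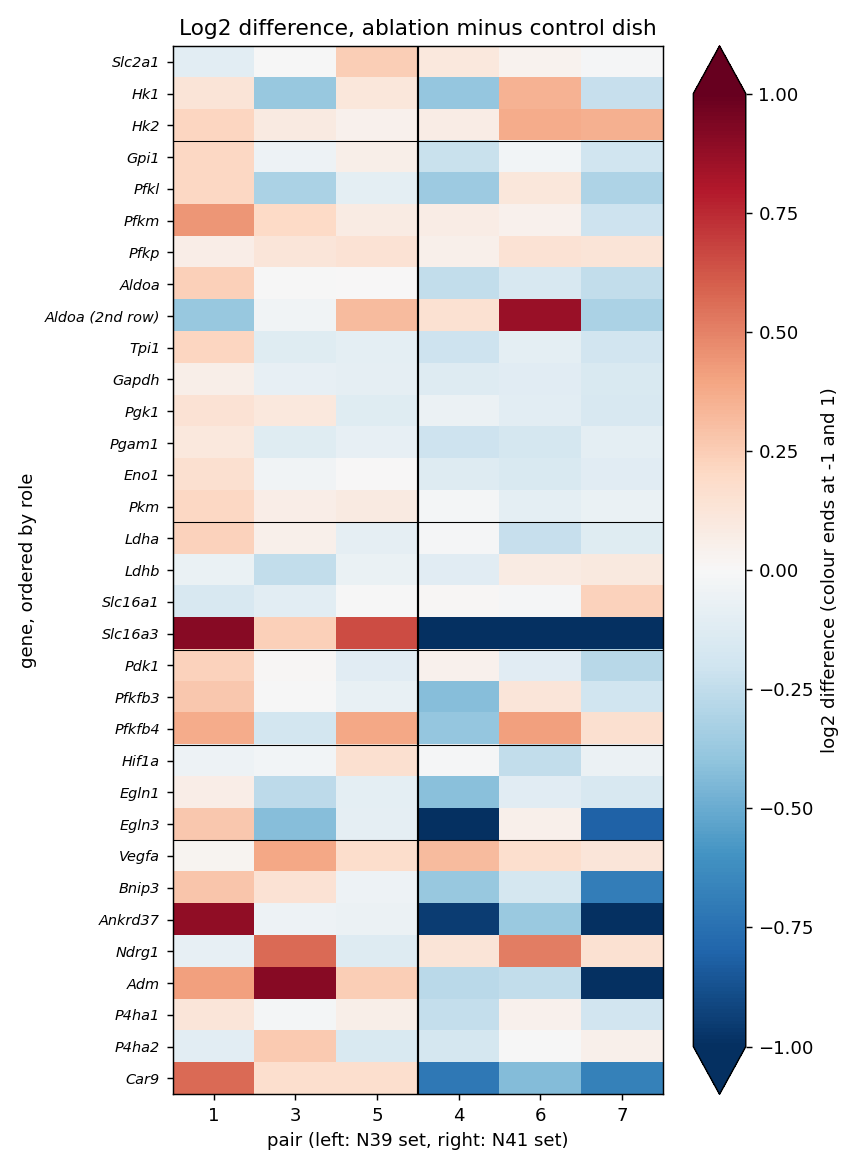
Log2 difference of normalized counts plus 1 between the ablation and the control dish of each pair, for all 33 rows in order of role, with N39 pairs left and N41 pairs right of the line. Colours end at -1 and 1, and pair 1 has 26 rows higher after ablation while pair 7 has 8.

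The second comparison asked whether the response to ablation differed between library sets. Within pairs of N39, 26 of the 33 rows were higher after ablation in pair 1, 14 in pair 3 and 17 in pair 5. In N41, 9 were higher in pair 4, 14 in pair 6 and 8 in pair 7. The share of all genes higher in each single pair was not counted. The difference of responses (N41 minus N39) was negative for 27 of 33 rows, with a median log2 difference of -0.15 beside 0.0062 over all genes. In limma with the pair as a term, 1 row passed an adjusted p under 0.05, Slc16a3, and it was the 1 gene of 13792 (0.00725%) that did. At an unadjusted p under 0.05, 9 rows were lower and 0 higher, against 7.88% of all genes, made up of 4.19% lower and 3.69% higher. These 9 were the enzymes Gpi1, Aldoa, Eno1 and Pkm, the transporter Slc16a3, and the hypoxia target genes Bnip3, Ankrd37, Adm and Car9.

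Slc16a3 encodes MCT4, the monocarboxylate transporter that exports lactate from glycolytic cells, and lies on chromosome 11 (120948480 to 120960868, plus strand, ENSMUSG00000025161.16). In N39 it stood at 64.3, 52.0 and 78.8 counts after ablation and at 33.8, 44.0 and 49.8 in the controls of pairs 1, 3 and 5. In N41 it stood at 44.5, 91.8 and 47.7 counts after ablation and at 144.9, 239.0 and 252.4 in the controls of pairs 4, 6 and 7. All N39 ablation dishes were above their set's controls, all N41 ablation dishes were below theirs, and the N41 controls were the highest 3 of the 12 dishes. Means in N39 were 65.0 ± 13.5 after ablation and 42.5 ± 8.10 in the controls (SD, n = 3), and the log2 fold change was 0.60 ± 0.209 (SE) with an adjusted p of 0.239 in limma. In N41 the mean fell from 212.1 ± 58.6 in the controls to 61.4 ± 26.4 after ablation (SD, n = 3), which is a log2 fold change of -1.81 ± 0.209 (SE, adjusted p = 0.0049 in limma). The difference between the responses was -2.41 ± 0.295 (SE) with an adjusted p of 0.0285, while the log2 fold change over both sets was -0.61 (adjusted p = 0.736). At the shared passage P2+15, the ablation dish held 1.58 times its control in pair 5 and 0.307 times its control in pair 4.

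The calls for Slc16a3 depended on the variance model. With variances moderated in limma without a trend or robust estimation, the adjusted p was 0.4635 for the difference of responses and 0.224 within N41. The call for the difference of responses also depended on single pairs. In the main limma fit its adjusted p was above 0.05 when pair 1, 4, 5 or 7 was left out. Slc16a3 shares 306 exon bases with Csnk1d on the opposite strand, which had a mean of 5235 counts and a log2 fold change of -0.11 within N41.

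Car9 encodes carbonic anhydrase IX, a membrane enzyme that regulates pH outside the cell, and lies on chromosome 4 (43506966 to 43513729). Its counts were 900.7, 681 and 457 after ablation and 609, 607 and 407 in the controls of pairs 1, 3 and 5. In pairs 4, 6 and 7 they were 346, 546 and 586 after ablation and 569, 738 and 937 in the controls. It was thus higher after ablation in each N39 pair and lower in each N41 pair, with overlap between the groups of either set. Within N41 it fell by 0.61 on the log2 scale (adjusted p = 0.0158 in limma), and within N39 its log2 fold change was 0.30 (adjusted p = 0.191). The difference of responses, -0.91 ± 0.132 (SE), had an adjusted p of 0.0573. The N41 call was lost without pair 4 (adjusted p = 0.105), without pair 7 (0.153) and with variances moderated without a trend or robust estimation (0.224).

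**Figure D3:**
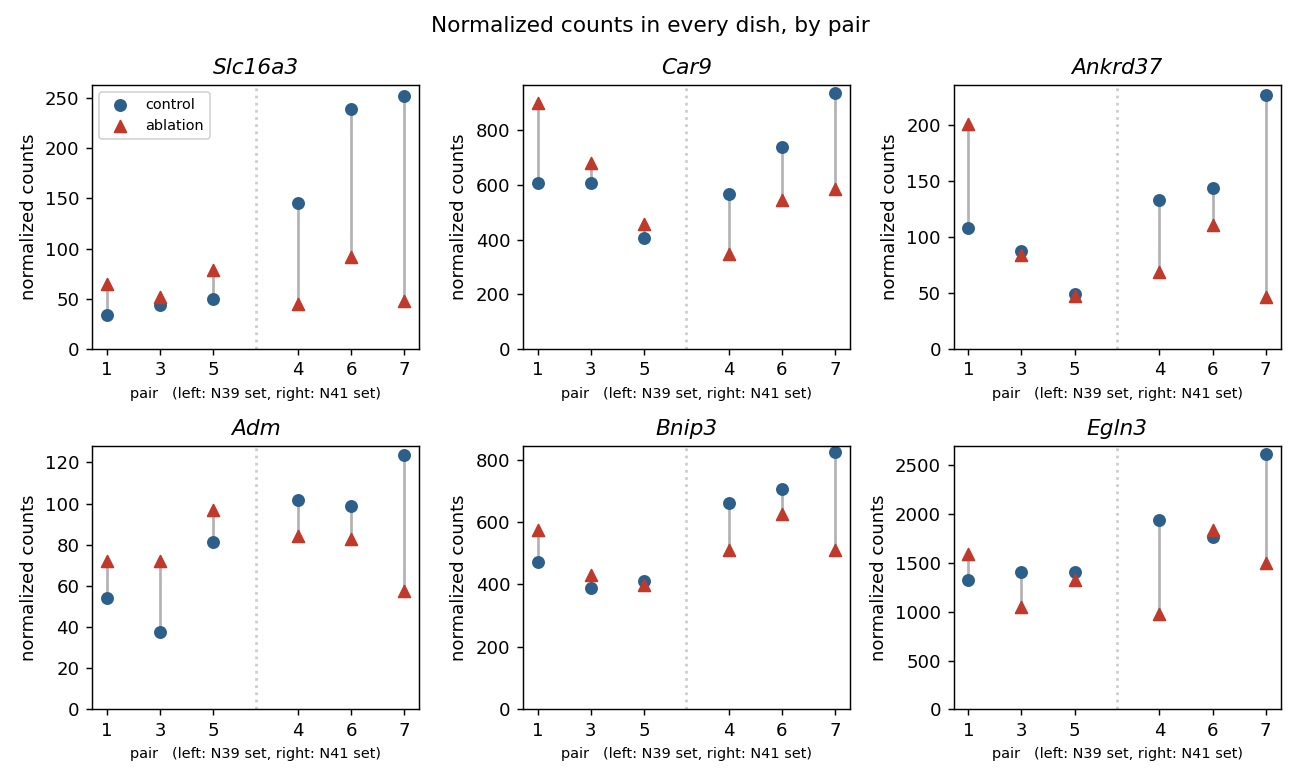
Normalized counts of 6 genes in every dish, with control (circles) and ablation (triangles) of each pair joined by a line, N39 pairs left and N41 pairs right of the dotted line. For Slc16a3 the N41 controls (144.9 to 252.4) are above all other dishes, and for Car9 the joined dishes run in opposite directions in the sets.

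Bnip3, Ankrd37 and Adm were lower after ablation in each N41 pair and did not pass the threshold. In N39, Adm was higher after ablation in each pair, Bnip3 was lower in pair 5, and Ankrd37 was lower in pairs 3 and 5. Bnip3, a receptor for removal of mitochondria, stood at 573, 429.6 and 398 counts after ablation and 472, 388 and 412 in the controls of N39, and at 509.7, 627 and 509 after ablation and 661, 707 and 823 in the controls of N41, in the same order of pairs. The ankyrin repeat gene Ankrd37 stood at 200.8, 83.9 and 46.9 after ablation and 108, 87.0 and 48.8 in the controls of N39, and at 68.3, 110.6 and 45.7 after ablation and 133, 143 and 227 in the controls of N41. For Ankrd37 the N39 dishes overlapped widely, with the highest value in pair 1.

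Adm encodes adrenomedullin, a secreted vasodilator peptide. It stood at 72.1, 71.9 and 96.7 after ablation and 54.0, 37.9 and 81.4 in the controls of N39, and at 84.1, 82.9 and 57.4 after ablation and 101.7, 98.8 and 123.8 in the controls of N41. In all 3 genes every N41 control exceeded every N41 ablation dish. The differences of responses were -0.54 ± 0.142 (SE) for Bnip3, -1.46 ± 0.488 for Ankrd37 and -1.06 ± 0.288 for Adm, with adjusted p-values in limma of 0.401, 0.587 and 0.413. Ankrd37 shares 349 exon bases with Lrp2bp and 57 with Ufsp2, both on the opposite strand.

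The 4 enzymes differed by less. Aldoa, the main muscle-type aldolase, stood at 20372, 16482 and 14981 counts after ablation and 17296, 16559 and 14943 in the controls of N39. In N41 it stood at 12749, 13354 and 15247 after ablation and 15143, 14894 and 18124 in the controls. Its difference of responses was -0.30 ± 0.0815 (SE) with an adjusted p of 0.423 in limma. Gpi1, the phosphoglucose isomerase, had 10663, 8935 and 8209 counts after ablation and 9216, 9236 and 7879.6 in the controls of N39, and 7365, 7873 and 7628 after ablation and 8579.6, 8029 and 8744 in the controls of N41. The N41 groups of Gpi1 did not overlap, and its difference was -0.22 (adjusted p = 0.603 in limma).

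Eno1, the enolase, had 19979, 23029 and 18933 counts after ablation and 17875, 23634 and 18898 in the controls of N39, and 16127, 15270.0 and 18758 after ablation and 17671, 16981 and 20321 in the controls of N41. Pkm had 74841, 76569.8 and 70829 counts after ablation and 64942, 73229 and 66399.6 in the controls of N39, and 58374, 54322 and 63791 after ablation and 59049.8, 58228 and 66860.1 in the controls of N41. Pkm was higher after ablation in each N39 pair and lower in each N41 pair, while Eno1 was lower in pair 3 and in each N41 pair. Both had a difference of responses of -0.18, with adjusted p-values in limma of 0.629 for Eno1 and 0.603 for Pkm. Without pair 1 the difference was smallest for each enzyme, at -0.22 for Aldoa, -0.15 for Gpi1, -0.12 for Eno1 and -0.14 for Pkm.

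Patterns over dishes were counted for all rows. These patterns were not among the planned comparisons and include those that Slc16a3 itself shows, so the counts describe the rows and are not a test. A pattern of opposite directions, higher after ablation in all N39 pairs and lower in all N41 pairs, was met by 4 of the 33 rows (Slc16a3, Adm, Car9 and Pkm) and by 1.75% of all genes, and the reverse by 0 rows and 1.46% of all genes. Every N41 control was above every N41 ablation dish in 8 rows and in 7.4% of genes. Every N41 control was above every other dish in 3 rows (Slc16a3, Bnip3 and Adm) and in 0.725% of genes.

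Within N41, 2 rows passed an adjusted p under 0.05, both lower (Slc16a3 and Car9), against 0.544% of all genes (0.174% lower and 0.37% higher). At an unadjusted p under 0.05, 12 rows were lower and 3 higher, against 13.2% of all genes (6.68% lower and 6.56% higher). Within N39, 0 rows passed, against 0.109% of all genes (0.102% higher). At an unadjusted p under 0.05, 7 rows of N39 were higher and 0 lower, against 13.8% of all genes (6.95% higher and 6.85% lower). By role, all 8 hypoxia target genes had a positive log2 fold change within N39 (median 0.16, lowest 0.0012 for P4ha2). Within N41, 6 of 8 had a negative log2 fold change (median -0.27). In single N39 pairs, Ndrg1 and P4ha2 were lower in pairs 1 and 5, Ankrd37 in pairs 3 and 5, Bnip3 in pair 5 and P4ha1 in pair 3. Vegfa, Adm and Car9 were higher in each N39 pair. The 30 other HIF pathway and target genes tested had medians of 0.045 within N39 (22 positive and 8 negative) and -0.024 within N41 (11 positive and 19 negative). Medians over all genes were -0.0046 and -0.00066. The glycolytic enzymes were split 8 positive to 4 negative in N39 and 2 to 10 in N41. Vegfa and Ndrg1 were the 2 hypoxia target genes with a positive log2 fold change in both sets.

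**Figure D4:**
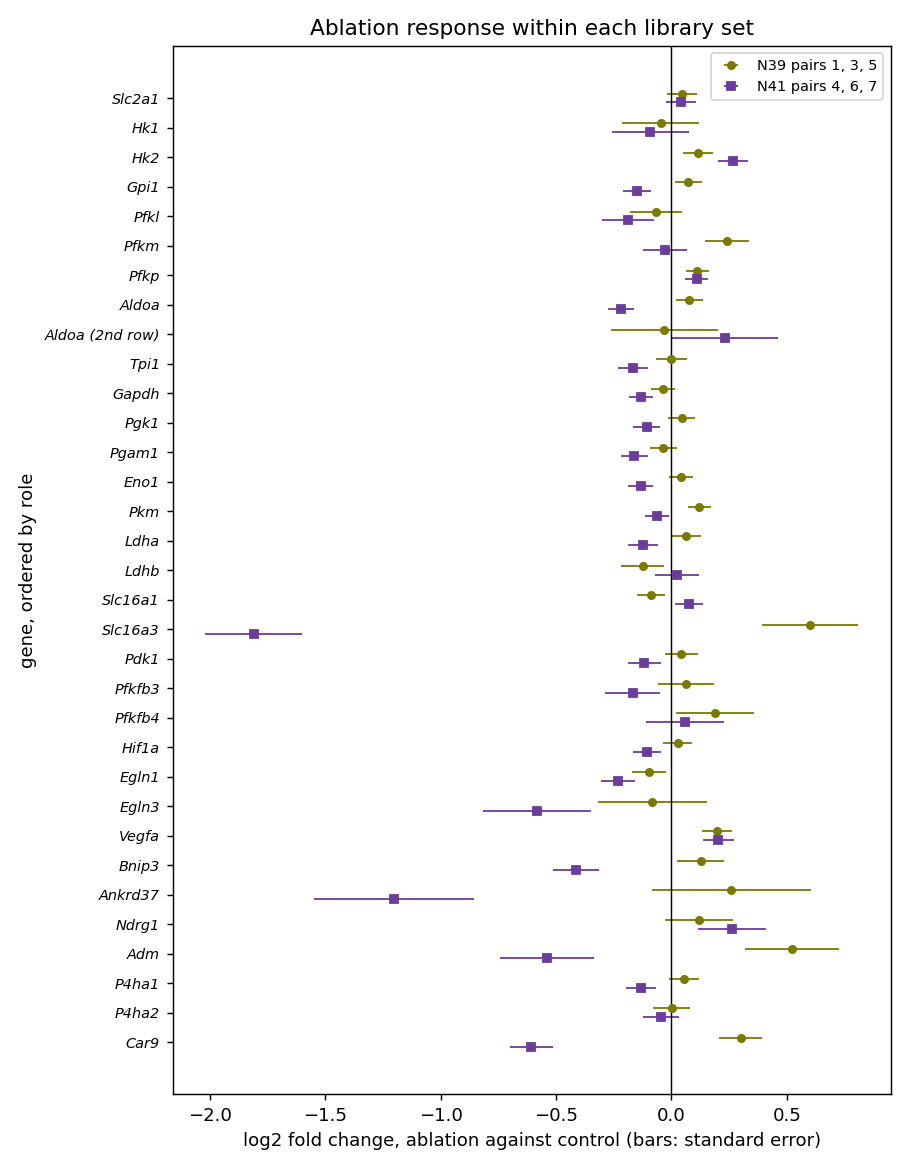
Log2 fold change of ablation against control with its standard error, from the pair-blocked fit, for the 33 rows within N39 (circles) and within N41 (squares). Slc16a3 lies at 0.60 and -1.81, Car9 at 0.30 and -0.61, while Vegfa lies at 0.20 in both.

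The third comparison set the 3 N41 pairs against the 3 N39 pairs, by pair means. No row passed an adjusted p under 0.05 in limma, as was the case for 0% of all genes, with 7 of 33 rows against 9.38% of all genes (5.06% higher and 4.31% lower) at an unadjusted p under 0.05. Higher in N41 were Slc16a3 (log2 difference 1.06), Bnip3 (0.51), Ldhb (0.44) and Egln3 (0.34), and lower were Pkm and Hk2 (both -0.24) and Gapdh (-0.21). All had adjusted p-values of 0.465 or more. The difference in Slc16a3 came to 2.27 in the control dishes and -0.14 in the ablation dishes, so the sign turned with the dishes used.

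Ldhb, the lactate dehydrogenase subunit of oxidative tissue, stood at 315, 227 and 262 counts after ablation and 329, 269 and 274 in the controls of N39, and at 308, 447 and 399 after ablation and 332, 423 and 373 in the controls of N41. Its 2 groups lay close within every pair. Egln3 stood at 1589.9, 1046 and 1322 counts after ablation and 1321, 1405 and 1406 in the controls of N39, and at 974, 1834 and 1495 after ablation and 1939, 1767 and 2619.5 in the controls of N41. Its control 7 was the highest dish and its ablation 4 the lowest. Every N41 pair mean lay below every N39 pair mean for Hk2, Gapdh, Pkm and Pfkfb3 (4 rows, against 8.74% of genes) and above for Slc16a3 and Bnip3 (2 rows, against 8.39%).

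The remaining genes had no unadjusted p under 0.05 in these 3 comparisons. The flux regulators Pdk1, Pfkfb3 and Pfkfb4, which set pyruvate entry into mitochondria and phosphofructokinase activity, had log2 fold changes of -0.04, -0.05 and 0.12 after ablation. Slc16a1 and Ldha had log2 fold changes of -0.01 and -0.03. The collagen prolyl hydroxylases P4ha1 and P4ha2 had -0.04 and -0.02, and the stress gene Ndrg1 0.19, with 3545 to 6853 counts after ablation and 2845 to 6849 in the controls. Pfkl, Pfkm, Tpi1 and Pgk1 had -0.13, 0.11, -0.08 and -0.03. Within single sets, Pfkm had 0.24 in N39 (unadjusted p = 0.025) and Tpi1 -0.17 in N41 (unadjusted p = 0.0243), and neither passed the adjusted threshold in limma.

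Further genes of the same pathways were counted by list. Of 37 other glycolysis and lactate genes, 25 were tested, and 0 passed an adjusted p under 0.05 in limma in either ablation model, with 8 above and 17 below 0. The pyruvate dehydrogenase phosphatase Pdp1 had the largest absolute log2 fold change among them, 0.20. The largest difference of responses in that list was -0.45 for the aldolase Aldoc, and the largest difference between sets was 0.79 for embigin (Emb), a partner of monocarboxylate transporters. Of 33 symbols for other HIF pathway and target genes, 32 had a row, Ero1a being the other, and 30 were tested. Of these, 0 passed with library set as a term, while 2 passed in the paired model, both higher, against 1.09% of all genes (0.674% higher).

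These 2 were Vldlr, a lipoprotein receptor, and Bhlhe40, a transcriptional repressor. Vldlr stood at 2641, 3393 and 3701 counts after ablation and 2341, 2415 and 2817 in the controls of N39, and at 3606, 3665 and 3434 after ablation and 2631, 2835 and 2844 in the controls of N41. Its difference of 0.36 on the log2 scale had an adjusted p of 0.192 in limma with library set and 0.0042 with the pair. Bhlhe40 stood at 3559, 3591 and 5073 after ablation and 2641, 2464 and 4630.5 in the controls of N39, and at 4499.9, 4284 and 4585 after ablation and 3514, 3319 and 4325 in the controls of N41. Its difference was 0.32 (adjusted p = 0.629 in limma with library set, 0.0209 with the pair), and both genes were higher after ablation in all 6 pairs.

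Within N41, Vldlr and the transferrin receptor Tfrc passed the threshold, or 2 of 30 against 0.544% of all genes (0.37% higher), with Tfrc 0.42 higher after ablation on the log2 scale (limma, adjusted p = 0.0163). Tfrc had 2470.1, 2302 and 2059 counts after ablation and 1822, 1701 and 1576 in the controls of N41, and 1899.9, 2535 and 1877 after ablation and 1694, 2858 and 1734 in the controls of N39. Arnt2 had the largest absolute difference between sets among the other HIF pathway and target genes, -0.79 (adjusted p = 0.520 in limma). It had few counts, 7.79 to 30.0 over the dishes.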

How the data were processed

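Poly(A) RNA of 12 dishes was converted to stranded libraries and sequenced. The authors used the nf-core pipeline for RNA-seq to align and count reads on GRCm38.p6 and the GENCODE annotation. The deposited signal values are normalized counts, which the authors obtained by dividing each library's read counts by its DESeq2 size factor. The deposited table also holds log2 fold changes, score columns (standard errors and Wald statistics) and p-values of the authors' own comparison, which were not used. Whole reads were accepted as recovered for 9 libraries (23631212 to 29775699 reads). In all 12 libraries 100% of values were whole within 0.02 reads. The step, the normalized value of 1 read, was 0.990 to 1.007 in the 3 libraries not accepted. It was 0.988 in control 6, which was accepted.

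Values were compared on the log2(normalized count + 1) scale with limma 3.58.1 in R 4.3.3, with trended, robust variance moderation and Benjamini-Hochberg adjustment over the 13792 genes that had 10 or more normalized counts in 6 or more of the 12 libraries. Fold changes on this scale understate changes of low genes. The ablation model held condition and library set, the study's batch being unnamed in its methods. The pair replaced the library set as an alternative and served as block in the test of differing responses and within sets. Pairing comes from the titles, and deviations of same-numbered dishes from group means correlated across genes with r from 0.205 to 0.618, each number correlating best with itself except 4, which correlated best with 5. Other alternatives were edgeR 4.0.16 and DESeq2 1.42.0 on the 9 recovered libraries, other scalings, filters and pseudocounts, and omission of each pair. Scripts were tested on simulated data. Members and gene lists were chosen with earlier results of these data known. Genes were named with all values where an unadjusted p was under 0.05 in any of the 3 comparisons. Genes of the other lists were named where they passed an adjusted p of 0.05 or had the largest absolute log2 fold change of their list. A result that this rule names is not reported here. The within-set contrasts were added after the data were seen, and the counts of patterns over dishes were not planned. Promoter sequences were taken from RefSeq.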

Additional observations from a re-analysis of the deposited data

Results flagged for a closer look

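In 3 of 66 groups of 6 dishes tested, a dish stood apart from the rest of its group by a gap large against the group's range, and chance gives such a gap in about 1 in 20 groups. Hk1 was highest in ablation 1 with 7698 counts, Pfkm was highest in ablation 1 with 651 counts, and Pgam1 was highest among the controls in control 3 with 2488 counts.

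The responses of 4 genes ran in opposite directions in every pair of the library sets. For Slc16a3 the difference of log2 responses (N41 minus N39) of -2.41 passed the test of the difference itself (adjusted p = 0.0285 in limma). For Adm (-1.06), Car9 (-0.91) and Pkm (-0.18) every N39 pair was higher and every N41 pair lower after ablation, and the test of the difference did not pass the threshold.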

How the results depend on the processing

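Of 375 re-computed single-gene values, 359 kept their direction and side of the threshold, 10 lost and 5 gained a call, and 1 turned, the difference between sets of Slc16a3 in ablation dishes alone (-0.14). For ablation against control, 0 members passed in the main model and with the replicate block, 2 with the block in N41 alone (Slc16a3 and Car9), and 0 to 1 with the block and a pair left out (Vegfa without pair 1). For the difference of responses, 1 member passed, but 3 without the filter on low values, 2 with TMM factors, 0 with plain variances (moderated without a trend or robust estimation), 0 without the block, and 0 to 2 with a pair left out (0 without pair 1, 4, 5 or 7). Within N41, 2 passed, but 5 without the filter, 0 with plain variances, and 1 to 2 with a pair left out (1 without pair 4 or 7). The cause of these changes was not tested. Over all genes, ablation against control gave 0 calls, 3 without the filter, 150 with the block (8 without pair 4 to 176 without pair 1), 16 in N39 and 109 in N41, and DESeq2 on recovered reads gave 12 where edgeR gave 0. The difference of responses gave 1 call over all genes, 53 without the filter, 3 with TMM factors and 0 with plain variances or without the block, and 0 to 7 with a pair left out. The difference between sets gave 0 and, without the filter, 3. Contrasts within N39 gave 15, 294 without the filter, 0 with plain variances and 0 to 56 with a pair left out, and within N41 75, 335, 0 and 9 to 118. With all 6 pairs in the fit, the block changed no call of a member for ablation against control. Other scalings moved the median of all genes by at most 0.0142 on the log2 scale. Genes with few counts, Slc16a3 and Adm among them, are the least precise.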
